A study of Homo sapiens with 4 samples.

Results

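The luminal lineage transcription factors are DNA-binding proteins that set up and keep the identity of the hormone-responsive epithelial cells lining the breast ducts, the cells that ER+ breast cancers resemble. A list of 10 such genes was taken (GATA3, FOXA1, SPDEF, XBP1, ELF3, ELF5, GRHL2, TFAP2A, TFAP2C and TBX3), and each gene with a named probe on the array was represented by its brightest probe over the 4 arrays. Of the 10 genes, 8 were measured in this way, each with 1 probe, among 14679 genes with a named probe. ELF3 and TFAP2A have no named probe in the annotation used and were not analysed here. The cells were T47D, a human ER+ breast cancer line of luminal type. FDXR sh434 cells carried a hairpin targeting the transcript of FDXR (ferredoxin reductase), a mitochondrial flavoprotein, and shControl cells carried a control hairpin, called a control vector in the design text. Each group had 2 samples, labelled biological replicates, on Affymetrix arrays. Both groups were infected with virus, named a retrovirus in the design text and a lentivirus in the methods and followed there by antibiotic selection. The arrays cover 1 hairpin only. The labels of 3 arrays give other names for the line, while the growth protocol of all 4 names T47D. FDXR itself has no named probe, so its depletion was not analysed here.

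GATA3 and FOXA1 open and hold chromatin for the estrogen receptor in luminal cells. The ETS-domain factors SPDEF, ELF3 and ELF5 direct luminal and secretory differentiation, ELF5 being the factor of the milk-producing alveolar lineage. XBP1 drives genes of secretory capacity and the unfolded protein response, GRHL2 keeps epithelial junction genes on, TFAP2A and TFAP2C are AP-2 factors of luminal cells, and TBX3 is a T-box factor needed for mammary gland formation.

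The stretches before the start sites of ELF5 and SPDEF are shown because these members had the largest changes. That of GATA3 is shown because it holds the most motif matches among the first listed windows of 5 members. GATA3 has 6 listed windows and XBP1 has 2. The GATA3 window shown is the farthest upstream of its 6. Sequences are from RefSeq (GRCh38.p14), the 250 bases before the first listed start, 5′ to 3′ on the gene's strand, and capitals mark matches to the motifs searched. ELF5 lies on the minus strand (chr11:34511725-34511974), SPDEF on the minus strand (chr6:34556330-34556579) and GATA3 on the plus strand (chr10:8045083-8045332).
ELF5: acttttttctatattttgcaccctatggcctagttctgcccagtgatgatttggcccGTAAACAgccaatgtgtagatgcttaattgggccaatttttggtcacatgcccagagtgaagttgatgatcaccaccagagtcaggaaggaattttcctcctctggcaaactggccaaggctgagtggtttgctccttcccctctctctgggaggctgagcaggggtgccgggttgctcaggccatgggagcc
SPDEF: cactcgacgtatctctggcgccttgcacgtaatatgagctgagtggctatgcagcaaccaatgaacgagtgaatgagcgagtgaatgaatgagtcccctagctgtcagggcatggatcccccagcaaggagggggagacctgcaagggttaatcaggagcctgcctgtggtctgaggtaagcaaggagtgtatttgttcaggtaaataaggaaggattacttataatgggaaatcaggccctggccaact
GATA3: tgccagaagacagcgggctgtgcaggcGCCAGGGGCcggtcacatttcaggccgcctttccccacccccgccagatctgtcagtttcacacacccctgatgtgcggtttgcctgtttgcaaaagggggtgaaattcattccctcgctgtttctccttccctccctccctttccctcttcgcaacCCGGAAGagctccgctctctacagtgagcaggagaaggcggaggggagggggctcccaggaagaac

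Searched on both strands, the 8 motifs were that of GATA factors, AGATAA, of forkhead factors, TGTTTAC, of AP-2 factors, GCCNNNGGC, of ETS factors, CCGGAAG, of Grainyhead factors, ACCGGTT, of T-box factors, GGTGTGA, of XBP1, ACGTGG, and the nuclear receptor half-site, AGGTCA. None of the matches shown overlaps another. The ELF5 window held 1 match, the forkhead motif, starting 193 bases before the start and read on the opposite strand. That motif occurs in 2.98% of all 35114 windows. The GATA3 window held an AP-2 match 223 bases before the start and an ETS match 66 bases before it, motifs found in 19.8% and 8.52% of windows. The windows of SPDEF, FOXA1 and the first of XBP1 held 0 matches. The second XBP1 window, not shown, held 2 AP-2 matches, as many matches as the GATA3 window shown. CpG dinucleotides numbered 2 in the ELF5 window and 6 in the SPDEF window, against a median of 11 over all windows. They numbered 11 in the GATA3 window shown, 26 for FOXA1 and 31 in the first XBP1 window. Over the 6 GATA3 windows they ranged from 4 to 30. The GC content was 51.6% for ELF5 and 50.8% for SPDEF, with a median of 58.0% over all windows. These matches are descriptions of the letters only.

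In FDXR sh434 cells the luminal factors lay on both sides of their shControl levels. The level of ELF5 was 1.45-fold and that of SPDEF 1.43-fold that of shControl cells, while GRHL2 and TFAP2C were 1.18-fold and 1.21-fold lower, and XBP1 differed by a log2 fold change of only 0.01. Of the 8 factors, 0 passed an adjusted p of 0.05 in limma with Benjamini-Hochberg adjustment over all 38598 probes, of which 0.7% passed. At an unadjusted p under 0.05 there were 2, ELF5 and SPDEF, against 17.3% of all probes. A second limma fit, called the signal-dependent spread here, took the expected variance of a probe from its brightness and used robust estimation. There 4 of the 8 passed, against 8.43% of all probes and 11.3% of named genes. ELF5 and SPDEF were higher, as were 5.02% of probes, and GRHL2 and TFAP2C were lower, as were 3.41%. All 8 factors lay at or above the median signal, where this fit expects a smaller variance than for dim probes. The shares given here and below cover probes or genes of every brightness and were not matched for it, so they are no like-for-like measure. The arrays of the 2 groups did not overlap for 7 of the 8 factors, 4 of them higher and 3 lower in FDXR sh434 cells. This held for 48.7% of all probes, 25.6% higher and 23.1% lower, and for 53.9% of named genes. The median log2 fold change was 0.11 over the 8 factors and 0.03 over the named genes. With 2 arrays against 2, the smallest two-sided p that an exact permutation test can give is 0.333.

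**Figure D1:**
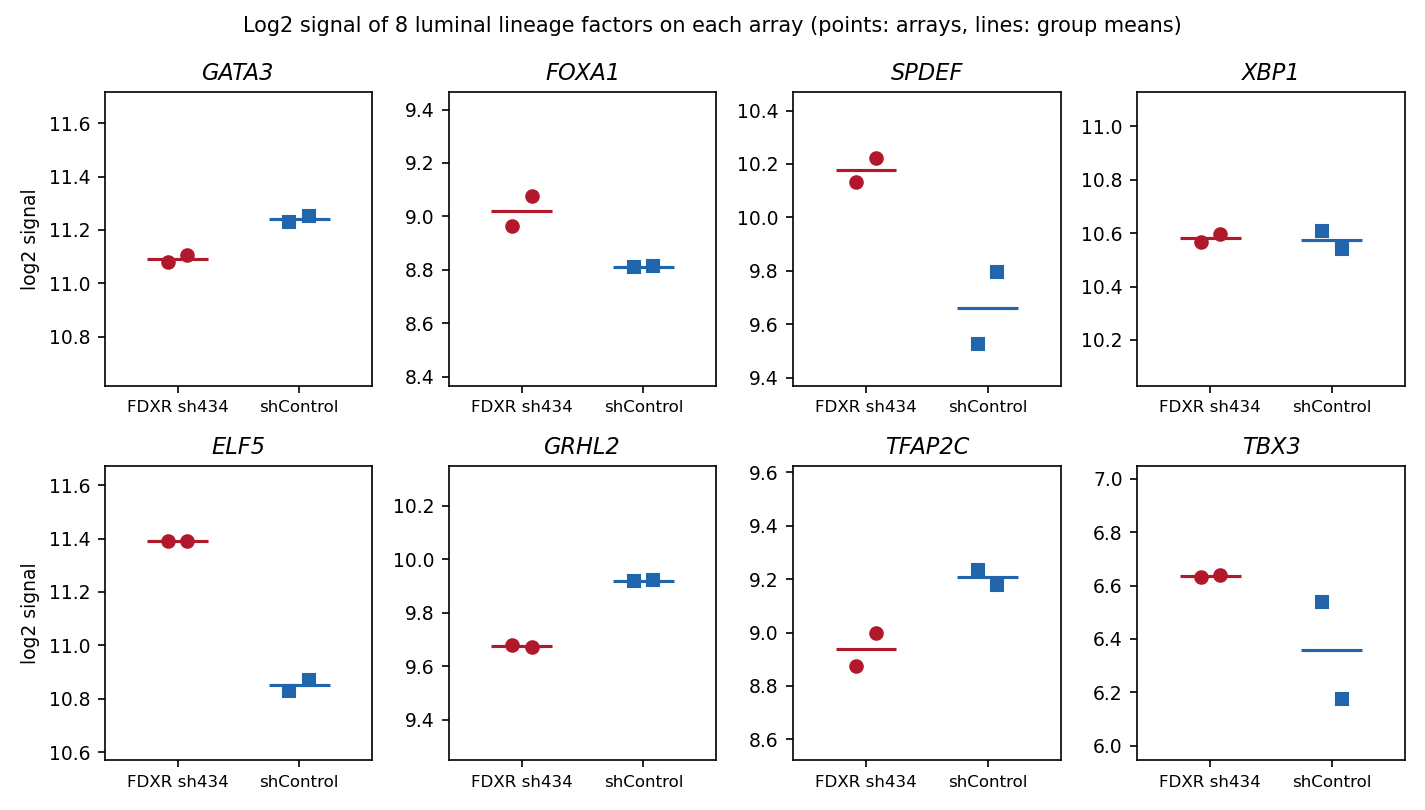
Log2 signal (vertical axis, each panel spanning the same range) of the 8 measured luminal factors on the FDXR sh434 arrays (red circles) and the shControl arrays (blue squares), with lines at the group means. Both FDXR sh434 arrays lie above both shControl arrays for ELF5, SPDEF, FOXA1 and TBX3, below them for GATA3, GRHL2 and TFAP2C, and among them for XBP1.

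ELF5 had log2 signals of 11.39 and 11.39 in FDXR sh434 cells, against 10.83 and 10.87 in shControl cells. The 2 arrays of each group lay close together and the groups stood clearly apart. The log2 fold change was 0.54 (standard error 0.101, 95% interval 0.29 to 0.79), with an adjusted p of 0.0881 from limma. With the signal-dependent spread the adjusted p was 0.000155 (standard error 0.0445). Among named genes, 3.23% had a log2 fold change at least as high as that of ELF5. When 1 of the 4 arrays was left out, the log2 fold change of ELF5 ranged from 0.52 to 0.56. Fits without 1 array leave a single array in 1 group. With the signal-dependent spread they were added after the data were seen, here and below.

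SPDEF, a factor of goblet and luminal secretory cells, had log2 signals of 10.13 and 10.22 in FDXR sh434 cells, against 9.53 and 9.80 in shControl cells. The shControl arrays differed more from each other than the FDXR sh434 arrays did, without reaching them. The log2 fold change was 0.52 (standard error 0.132, 95% interval 0.18 to 0.85), with an adjusted p of 0.149 from limma and 0.00578 with the signal-dependent spread. With that spread it was 0.0794 without FDXR sh434 replicate 1 and 0.126 without FDXR sh434 replicate 2, and SPDEF passed without either shControl array.

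GRHL2 had log2 signals of 9.68 and 9.67 in FDXR sh434 cells, against 9.92 and 9.92 in shControl cells. The replicate arrays were nearly equal in both groups, with standard deviations of 0.0055 and 0.0018. The log2 fold change was -0.24 (standard error 0.1, 95% interval -0.50 to 0.01). The adjusted p was 0.301 from limma, which draws the spread of every probe towards a common value, here an SD of 0.126, and 0.0207 with the signal-dependent spread. The call with that spread was lost without FDXR sh434 replicate 1 (adjusted p = 0.277) and without FDXR sh434 replicate 2 (adjusted p = 0.282).

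TFAP2C, the AP-2γ factor, had log2 signals of 8.88 and 8.999 in FDXR sh434 cells, against 9.24 and 9.18 in shControl cells. The groups did not overlap, and the gap between them was wider than the difference between the FDXR sh434 arrays but of the same order. The log2 fold change was -0.27 (standard error 0.108, 95% interval -0.54 to 0.0016), with an adjusted p of 0.292 from limma and 0.0384 with the signal-dependent spread. That call was lost without FDXR sh434 replicate 1 (adjusted p = 0.44), FDXR sh434 replicate 2 (adjusted p = 0.171) or shControl replicate 1 (adjusted p = 0.0543).

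**Figure D2:**
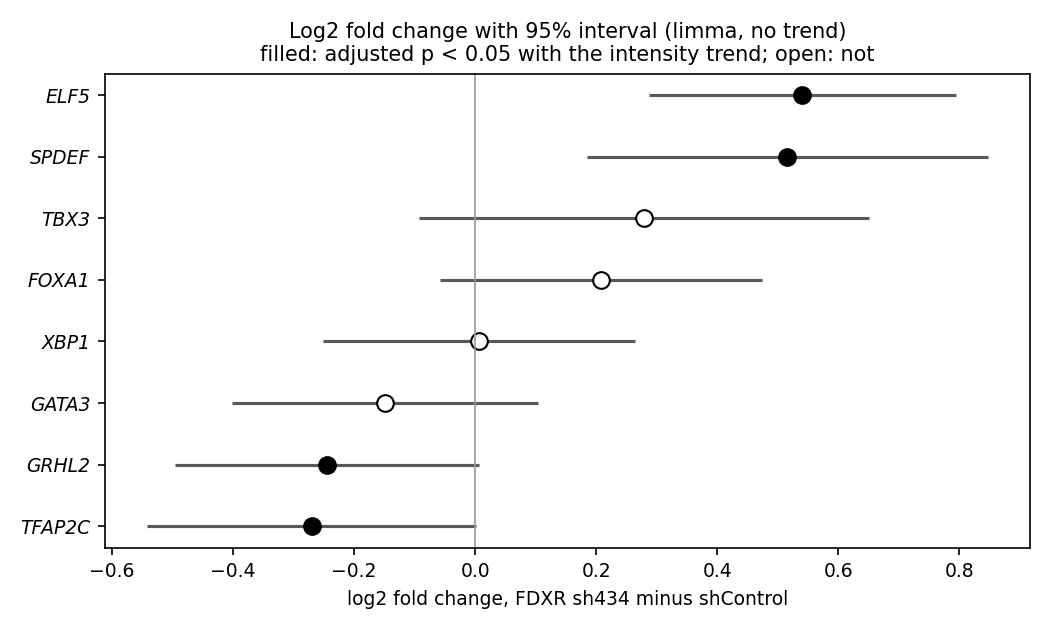
Log2 fold change of each luminal factor, FDXR sh434 minus shControl (horizontal axis), with the 95% interval from limma without a trend (bars; 2 arrays per group). Filled points passed an adjusted p of 0.05 with the signal-dependent spread; the intervals of ELF5 and SPDEF lie above 0 and those of the other 6 include 0.

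The other 4 factors did not pass in either fit of the 4 arrays. GATA3 had log2 signals of 11.08 and 11.11 in FDXR sh434 cells, against 11.23 and 11.25 in shControl cells. Its log2 fold change was -0.15 (95% interval -0.40 to 0.10), with an adjusted p of 0.514 from limma and 0.0792 with the signal-dependent spread. Quantile normalization of the arrays brought the GATA3 value to -0.04, and with the signal-dependent spread GATA3 passed without shControl replicate 1 (adjusted p = 0.0261). FOXA1 had 8.96 and 9.08 in FDXR sh434 cells, against 8.81 and 8.81 in shControl cells. These pioneer factors thus had point estimates of opposite sign, each with an interval that includes 0, and for FOXA1 the log2 fold change was 0.21 (95% interval -0.06 to 0.47, adjusted p = 0.39 from limma and 0.096 with the signal-dependent spread).

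TBX3 had log2 signals of 6.63 and 6.64 in FDXR sh434 cells, against 6.54 and 6.18 in shControl cells. The gap between its 2 shControl arrays was larger than the difference between the groups, and the log2 fold change of 0.28 (95% interval -0.09 to 0.65, adjusted p = 0.409 from limma) was 0.10 without shControl replicate 2 and 0.46 without shControl replicate 1, where TBX3 passed with the signal-dependent spread (adjusted p = 0.0261). XBP1 had 10.57 and 10.60 in FDXR sh434 cells, against 10.61 and 10.54 in shControl cells. Its groups overlapped, and the interval of its log2 fold change was -0.25 to 0.26 (adjusted p = 0.981 from limma). The probe gives 1 level for the gene, so spliced and unspliced XBP1 mRNA cannot be told apart.

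**Figure D3:**
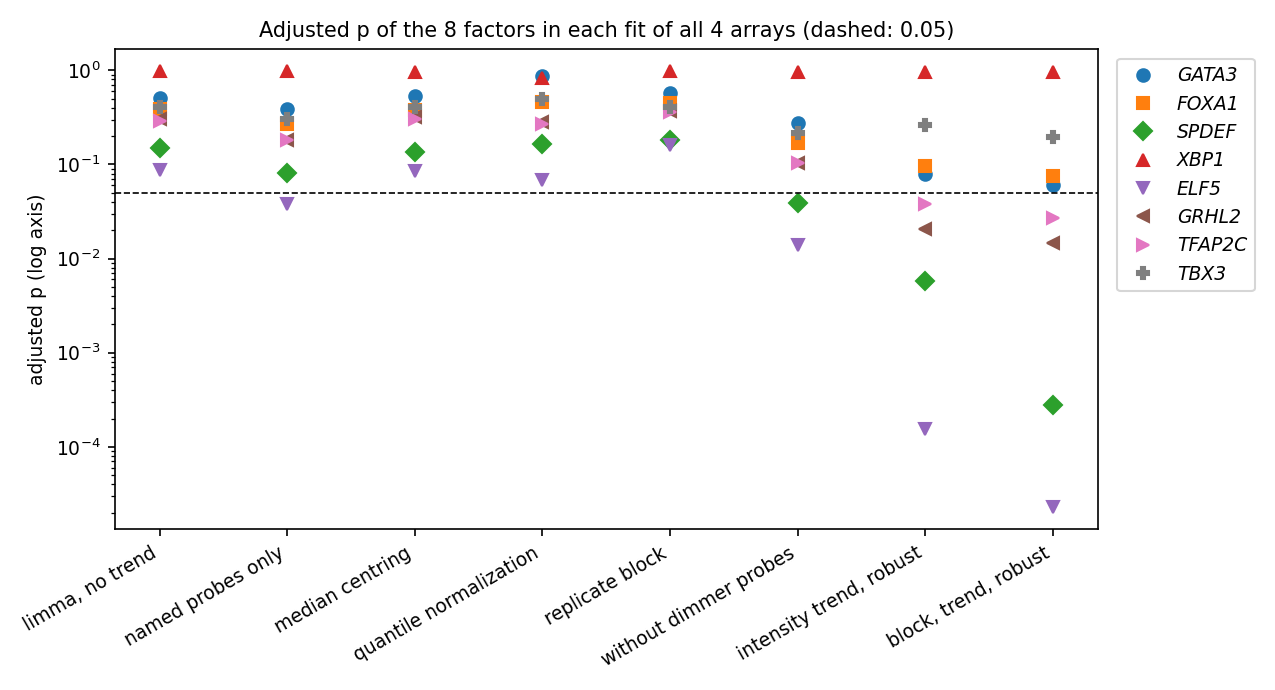
Adjusted p (vertical log axis) of each luminal factor in 8 limma fits of all 4 arrays (horizontal axis), with a dashed line at 0.05. ELF5 is under the line in 4 fits, SPDEF in 3, GRHL2 and TFAP2C in 2, and GATA3, FOXA1, TBX3 and XBP1 in 0.

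Of 32 relatives of the factors in the GATA, FOXA, ELF, GRHL, AP-2 and T-box families, 30 were measured. In limma 0 of them passed, against 0.7% of all probes. At an unadjusted p under 0.05, and likewise with the signal-dependent spread, 1 was higher and 2 were lower. These 3 of 30 stand beside 17.3% of all probes at that unadjusted p and 11.3% of named genes with the signal-dependent spread, shares no smaller than that of the relatives. The higher one was EHF, an epithelial ETS factor, with log2 signals of 10.95 and 10.87 in FDXR sh434 cells, against 10.46 and 10.50 in shControl cells. EHF is the next protein-coding gene to ELF5 on chromosome 11, and its groups did not overlap either. The EHF log2 fold change was 0.43 (standard error 0.104, adjusted p = 0.139 from limma and 0.00122 with the signal-dependent spread). On the other side of ELF5 lies CAT, the catalase gene, with a log2 fold change of 0.24 (adjusted p = 0.321 from limma and 0.0407 with the signal-dependent spread). Next to SPDEF on chromosome 6, ILRUN had a log2 fold change of -0.36 (adjusted p = 0.174 and 0.00865 in the same 2 fits). PACSIN1, on the other side of SPDEF, had one of 0.14 and passed in neither fit (adjusted p = 0.638 and 0.623). The measured neighbours of the other factors also passed in neither fit. These were MIPOL1, CCDC117, ZNRF3, NCALD, BMP7, TBX5 and MED13L, and no neighbour of GATA3 was measured. These neighbours were looked up after the values of the members had been seen. The lower relatives were GATA4, a factor of heart and gut, at -0.94 (adjusted p = 0.0661), and ELF4, an ETS factor of lymphoid cells, at -0.41 (adjusted p = 0.145). GATA4 was dim, with log2 signals of 3.87 and 3.88 in FDXR sh434 cells, against 4.64 and 4.99 in shControl cells. The median probe had a mean log2 signal of 4.76.

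Among 14678 other named genes, the 4-array log2 profiles nearest to that of ELF5, each centred on its own mean, were those of the ubiquitin ligase gene TRIM62, the copine gene CPNE2 and the guanine nucleotide exchange factor gene SPATA13, at Euclidean distances of 0.0219, 0.0245 and 0.0262. Their log2 fold changes were 0.53, 0.53 and 0.52. With 4 arrays in 2 groups such likeness describes little more than the size of the group difference.

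The luminal factors act together with hormone receptors, and the 3 receptors measured were all lower on both FDXR sh434 arrays. The progesterone receptor gene PGR had log2 signals of 10.62 and 10.64 in FDXR sh434 cells, against 11.45 and 11.32 in shControl cells (log2 fold change -0.75, adjusted p = 0.0575 from limma). The estrogen receptor gene ESR1 had 7.33 and 7.26 in FDXR sh434 cells, against 7.79 and 7.54 in shControl cells (log2 fold change -0.37, adjusted p = 0.236). The prolactin receptor gene PRLR had a log2 fold change of -0.17 (adjusted p = 0.467). None of the 3 passed in limma, 2 were lower at an unadjusted p under 0.05, PGR and ESR1, and 2 passed with the signal-dependent spread, PGR and PRLR. Over all probes 0.7% passed in limma and 17.3% were under that unadjusted p, each in either direction. With the signal-dependent spread 3.41% of probes were lower. A lower level with no overlap of the groups held for 23.1% of probes.

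Of 25 luminal differentiation genes, 17 were measured, with 0 higher and 1 lower in limma, 7 higher and 2 lower with the signal-dependent spread, and a median log2 fold change of 0.15. Over all probes 0.7% passed in limma in either direction, and 5.02% were higher and 3.41% lower with the signal-dependent spread, so that the limma count rests on a single gene. The gene that fell was AGR3, a protein disulfide isomerase family member of ER+ tumors, with log2 signals of 6.90 and 6.78 in FDXR sh434 cells, against 7.84 and 7.72 in shControl cells (log2 fold change -0.94, standard error 0.112, adjusted p = 0.0451 from limma). Genes with the next lowest adjusted p had positive log2 fold changes. These were 0.64 for MLPH, the melanosome linker melanophilin (adjusted p = 0.0706), 0.67 for the tight junction gene CLDN3 (adjusted p = 0.081) and 0.49 for PIP, the prolactin-induced protein (adjusted p = 0.108). The luminal genes thus lay on both sides of 0, as the factors did.

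Genes linked to XBP1 and to ELF5 were listed too. Of 24 unfolded protein response genes linked to XBP1 and ATF6, a list that holds ATF6 itself and ERN1, 10 were measured. In limma 0 passed, against 0.7% of all probes, and the median log2 fold change was 0.14. At an unadjusted p under 0.05, and likewise with the signal-dependent spread, 3 were higher and 1 was lower. These 4 of 10 stand beside 17.3% of all probes at that unadjusted p and 8.43% of probes, or 11.3% of named genes, with the signal-dependent spread. SEC61A1, the channel subunit of the translocon, had a log2 fold change of 0.59 (adjusted p = 0.079), and SEL1L, an adaptor of the degradation of misfolded proteins, one of 0.55 (adjusted p = 0.0867). SPCS3, a signal peptidase subunit, had one of -0.46 (adjusted p = 0.17). Of 12 milk secretory and luminal progenitor genes, which include targets of ELF5, 6 were measured and 0 passed in either fit. Over all probes 0.7% passed in limma and 8.43% with the signal-dependent spread. At an unadjusted p under 0.05, 1 was lower (17.3% of all probes in either direction), and the median was 0.02. CSN1S1, a casein gene, had a log2 fold change of -0.57 (adjusted p = 0.1), the protease inhibitor gene SLPI one of -0.36 (adjusted p = 0.295) and the lactoferrin gene LTF one of 0.38 (adjusted p = 0.376). Caseins CSN1S1, CSN2 and CSN3 all stayed under a log2 signal of 4 on every array, as did LTF and KIT.

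Of 15 basal and mesenchymal transcription factors, which oppose the luminal state, 11 were measured and 1 rose, against 0.7% of all probes that passed in either direction. This was SOX9, which is also known from luminal progenitors, with log2 signals of 8.84 and 8.57 in FDXR sh434 cells, against 7.46 and 7.58 in shControl cells (log2 fold change 1.18, standard error 0.134, adjusted p = 0.0402 from limma). The next were SNAI2 at 0.26 (adjusted p = 0.335), ZEB1 at -0.37 (adjusted p = 0.457) and TCF4 at -0.22 (adjusted p = 0.548), which did not pass. The median of the list was -0.08, and the 9 members other than SOX9 and SNAI2 had overlapping groups. Groups that did not overlap were found for 48.7% of all probes and 53.9% of named genes. SOX9 aside, no member exceeded a log2 signal of 6.01 on any array. All of these but SNAI1 and SOX10 had group means under the median probe signal of 4.76, so little can be read from their lack of change.

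**Figure D4:**
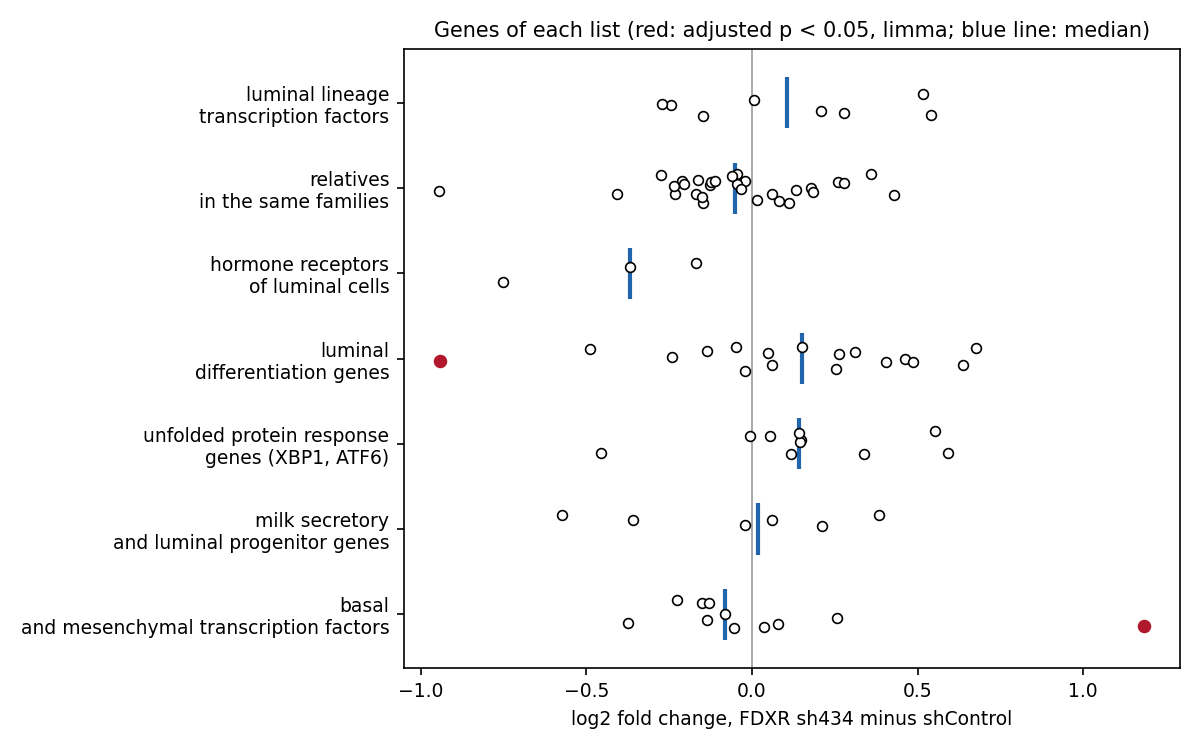
Log2 fold change, FDXR sh434 minus shControl (horizontal axis), of every measured gene of the luminal factors and of 6 related lists (rows; vertical scatter within a row has no meaning). Red points passed an adjusted p of 0.05 in limma, AGR3 at -0.94 and SOX9 at 1.18, and blue lines mark the medians, from -0.37 for the 3 hormone receptors to 0.15 for the luminal differentiation genes.

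Defining markers were read on the same arrays. Of 6 luminal markers 4 were measured. KRT19 had log2 signals of 11.08 and 11.04 in FDXR sh434 cells, against 10.99 and 11.04 in shControl cells, and EPCAM had 9.85 and 9.88 in FDXR sh434 cells, against 9.90 and 9.87 in shControl cells. KRT18, a gene with many pseudogenes, has 2 probes, with log2 fold changes of 0.26 and 0.21, and its brighter probe passed with the signal-dependent spread (adjusted p = 0.0105) but not in limma (adjusted p = 0.287). The dimmer KRT18 probe passed in neither fit (adjusted p = 0.227 with the signal-dependent spread). KRT18 is counted among the luminal differentiation genes above by its brighter probe. ESR1, the fourth marker, is given above and had a log2 fold change of -0.37. The log2 of the summed linear signal of the luminal markers was 12.45 to 12.46 in FDXR sh434 cells and 12.32 to 12.36 in shControl cells. The 3 basal markers measured of 6 had summed levels of 5.92 to 5.96 in FDXR sh434 cells and 5.74 to 5.81 in shControl cells. The 2 immune markers of 4 had 7.001 to 7.06 in FDXR sh434 cells and 6.88 to 6.89 in shControl cells, with log2 fold changes of opposite sign, 0.29 for CD68 and -0.39 for LAPTM5. Of these 5 genes 0 passed in limma or with the signal-dependent spread. Over all probes 0.7% passed in limma and 8.43% with the signal-dependent spread, or 11.3% of named genes. CD68 and LAPTM5 had unadjusted p-values of 0.0322 and 0.0274 from limma, where 17.3% of all probes were under 0.05. The 3 fibroblast markers of 6 had summed levels of 7.53 to 7.67 in FDXR sh434 cells and 6.65 to 6.75 in shControl cells. Of these, the fibronectin gene FN1 rose, with log2 signals of 7.21 and 7.33 in FDXR sh434 cells, against 6.06 and 6.06 in shControl cells (adjusted p = 0.0258 from limma), while DCN lay between 2.13 and 2.28 on all 4 arrays. VIM has 3 probes, with log2 fold changes of 0.10 for the brightest, whose groups overlapped, and 0.43 and 0.27 for the others. None of the VIM probes passed in either fit (adjusted p = 0.79 from limma for the brightest). The part of these levels in the results above was not tested. T47D is a cell line, so fibroblast and immune are names of marker lists here, not of cells stated to be in the samples. In bulk RNA fewer cells of a type and less RNA per cell cannot be told apart. Without any 1 array, limma without a trend called 0 probes, and the calls of AGR3, SOX9 and FN1 were lost there (adjusted p from 0.191 to 0.313). With the signal-dependent spread these 3 genes passed without any 1 array, with adjusted p-values from 0.000205 to 0.0158.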

How the data were processed

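The authors deposited log2 signals of 38598 probes for 4 Affymetrix arrays, with medians of 4.76 to 4.78. The summarisation and scaling steps were not given in the sources used here. Limma 3.50.3 is listed in the submitters' processing notes. Without scanner values the signal over background is unknown. Precision is limited by the number of arrays. The annotation gives 1 gene symbol for 15715 probes, several for 0 and none for 22883, and the brightest probe stood for a gene. FDXR sh434 was compared with shControl by lmFit and eBayes of limma 3.58.1 (R 4.3.3) with no filter, no trend, no block and Benjamini-Hochberg adjustment over all probes at 0.05. The fit had 2 residual and 3.45 prior degrees of freedom. P-values measure the spread between these samples only. The "signal-dependent spread" is eBayes with an intensity trend and robust estimation. The median residual SD was 0.162 in the dimmest and 0.0728 in the brightest 9650 probes. Other alternatives were the replicate block, quantile normalization, median centring, leaving out dimmer probes (under the median signal), named probes only and each array left out. Of the other lists, genes past the threshold or the 3 with the lowest adjusted p were named. The receptors, the marker genes and the measured neighbours of the factors were named too. For the luminal differentiation and the basal lists the next 3 were added after their values were seen. Members and lists were chosen with earlier results of these data known. Motifs were searched with Python 3.11.15.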

Additional observations from a re-analysis of the deposited data

How the results depend on the processing

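Of 120 values of the 8 factors under 15 alternatives, 94 kept their direction and stayed above 0.05, 22 kept their direction and passed, and 4 changed sign, all of them XBP1, whose log2 fold change ranged from -0.028 to 0.041 when 1 array was left out. With the signal-dependent spread 1937 probes were higher and 1318 lower, with 2 factors higher and 2 lower. Without the dimmer probes the counts were 1546 and 995, with 2 factors higher, and with named probes only 390 and 297, with 1 factor higher. Both of these settings test fewer probes. The replicate numbers are not stated to mark shared cultures, and the deviations of same-numbered arrays from their group means had a correlation of 0.002. With the replicate block 0 probes were higher and 0 lower, while 6268 had an unadjusted p under 0.05. With the block and the signal-dependent spread together, chosen after seeing the data, 2208 were higher and 1517 lower, with 2 factors higher and 2 lower. Leaving out 1 array gave 0 to 2466 probes higher and 0 to 1656 lower, with 0 to 3 factors higher and 0 to 2 lower. The values above 0 come from the signal-dependent spread, added for these after seeing the data, and the lone array of a group is then assumed to vary like the other group. Quantile normalization moved the log2 fold change of GATA3 to -0.04, and the cause was not tested. Each factor has 1 named probe, so the alternative with other probes gave no value.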
